A study of Mus musculus with 12 samples.

Results

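The core autophagy machinery comprised 33 genes of a given list, with the ULK kinase complex, the class III phosphatidylinositol 3-kinase complex, the ATG9 and ATG2 membrane supply, the conjugation system of the autophagosome and its fusion factors. They were read by symbol from 2 tables of RNA-seq counts of mouse liver, each with 23420 genes, so the members were 33 of 23420. One of them, Atg101, stood under its older symbol 9430023L20Rik. The list was set by gene function and not by a threshold on measured values, with earlier results of these data known.

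The liver was sampled in 4 groups of 3 libraries, on a C57BL/6 background. Tsc1/p62Δhep mice carried floxed alleles of both Sqstm1, the gene of p62, and Tsc1, together with Alb-Cre, in which the albumin promoter drives Cre recombinase in hepatocytes. Tsc1Δhep mice carried floxed Tsc1 and Cre, and their sample titles name deletion in hepatocytes without naming the promoter of Cre. p62Δhep mice carried floxed Sqstm1 and Alb-Cre, and p62F/F mice carried floxed Sqstm1 with no Cre. The comparison of p62Δhep with p62F/F therefore differs in Cre as well as in p62, whereas both groups with deleted Tsc1 carried Cre. Among the samples analysed here none had floxed Tsc1 without Cre, so the effect of Tsc1 loss alone was not compared within a table. The sample titles describe the deletions as specific to hepatocytes, and whether other liver cells kept the floxed genes was not tested. Separate mice are not stated for the libraries within a group, so p-values measure the spread between these libraries, which may be technical. Single-end and paired-end sequencing are both named for the series. The sources used here do not give the diet, age or sequencer of each library, so the part of the sequencer in these values was not tested.

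Autophagy encloses cytoplasm in a double membrane that is delivered to the lysosome. The ULK complex starts it, the phosphatidylinositol 3-kinase complex marks the growing membrane with PI3P, ATG2 and ATG9A bring lipid, and a ubiquitin-like conjugation system attaches ATG8 proteins to the membrane, where p62 and other receptors bind them with their cargo. The kinase mTORC1, which the TSC1 complex restrains, phosphorylates ULK1 and ATG13 and so holds back initiation, and p62 is itself degraded by autophagy.

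The promoters of the members whose change was called in both tests described below (Atg2b and Ulk2) and of the members with a CLEAR motif at the annotated start of the gene (Atg14 and Atg3) are shown because they let the RNA changes be set beside sequence. CLEAR is the element bound by TFEB and related lysosomal regulators, and its core was searched as TCACGTG on both strands. The windows run from 250 bases before to 50 bases after the RefSeq start, 5′ to 3′ on the gene's strand, in GRCm38.p6, and capitals mark the motif.
Atg2b: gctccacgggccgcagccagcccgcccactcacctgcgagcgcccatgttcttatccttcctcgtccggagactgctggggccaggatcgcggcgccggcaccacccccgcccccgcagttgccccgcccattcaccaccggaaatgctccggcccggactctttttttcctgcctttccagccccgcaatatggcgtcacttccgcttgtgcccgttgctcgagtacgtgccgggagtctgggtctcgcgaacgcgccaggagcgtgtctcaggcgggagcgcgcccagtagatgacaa
Ulk2: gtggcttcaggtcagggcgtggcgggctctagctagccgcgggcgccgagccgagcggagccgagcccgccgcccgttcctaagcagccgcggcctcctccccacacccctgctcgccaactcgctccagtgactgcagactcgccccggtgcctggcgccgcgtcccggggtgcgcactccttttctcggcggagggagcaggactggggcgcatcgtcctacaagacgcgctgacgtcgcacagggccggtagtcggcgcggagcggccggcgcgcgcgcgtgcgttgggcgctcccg
Atg14: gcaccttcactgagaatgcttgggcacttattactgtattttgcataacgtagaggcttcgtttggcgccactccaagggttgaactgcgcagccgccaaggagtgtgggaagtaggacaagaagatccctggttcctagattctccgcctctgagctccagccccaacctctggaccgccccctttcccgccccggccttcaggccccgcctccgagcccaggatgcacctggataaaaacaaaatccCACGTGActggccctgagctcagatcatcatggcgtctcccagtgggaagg
Atg3: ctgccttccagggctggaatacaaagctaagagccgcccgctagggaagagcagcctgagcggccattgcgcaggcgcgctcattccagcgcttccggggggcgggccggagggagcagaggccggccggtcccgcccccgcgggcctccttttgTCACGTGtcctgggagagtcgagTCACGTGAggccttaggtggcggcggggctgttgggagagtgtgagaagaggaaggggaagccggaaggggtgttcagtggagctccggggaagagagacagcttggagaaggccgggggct
They lie at chr12:105685192-105685491 on the minus strand (Atg2b), chr11:61855043-61855342 on the minus strand (Ulk2), chr14:47568385-47568684 on the minus strand (Atg14) and chr16:45158579-45158878 on the plus strand (Atg3). RefSeq windows were found for 27 of the 33 members and not for Rb1cc1, Becn1, Pik3c3, Atg12, Atg16l1 and Epg5. The CLEAR core stood in 3 of the 27, in Atg14, Atg3 and Atg7, which is 11.1%, against 4.29% of 27025 genes. In Atg3 it occurred at 2 places, at the second of them on both strands in overlap. The window of Atg7 lay inside the annotated span of the gene and is not shown. The window of Ulk2, though shown, also lay almost wholly inside the annotated span of its gene (chr11:61775598-61855334). The bases before that span were therefore hardly searched for Ulk2. The letters shown for Atg2b and Ulk2 held no CLEAR core. The forkhead motif GTAAACA was in 0 of the 27 windows (4.05% of all genes), and the ATF4 element TGATGNAA likewise in 0 (4.51% of all genes). A match is a description of letters and not a site.

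Facts of the whole series touch the members in a few ways. Total counts were 15792048 to 33377247 per library, and all 33 members passed the filter on low counts in every comparison. The deletions were visible. Sqstm1 had 14.4, 17.4 and 19.6 CPM (counts scaled to library size within a table) in Tsc1/p62Δhep, against 1210.0, 788.8 and 1002 CPM in Tsc1Δhep, and 17.5, 12.4 and 19.8 CPM in p62Δhep, against 315.5, 351.4 and 349.4 CPM in p62F/F. Tsc1 had 13.7, 11.9 and 9.35 CPM in Tsc1/p62Δhep, 5.76, 5.39 and 10.9 CPM in Tsc1Δhep, and 26.0 to 39.7 CPM in the table of p62Δhep and p62F/F. Hepatocyte markers were the most abundant of the marker lists in all 12 libraries. The RNA is of bulk tissue, in which fewer cells of a type and less RNA per cell cannot be told apart.

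With Tsc1 deleted, further loss of p62 was accompanied by higher RNA of 6 of the 33 members, Atg2b, Ulk2, Atg9a, Atg10, Atg14 and Atg13, and by lower RNA of none (edgeR's quasi-likelihood test, Benjamini-Hochberg adjusted over 12620 genes, adjusted p below 0.05). Over all genes tested, 9.25% were called higher and 14.9% lower in Tsc1/p62Δhep, against 18.2% and 0.0% of the members. The members' log2 fold changes had a median of 0.42 beside −0.05 for all genes, whose middle part ran between quartiles of −0.74 and 0.51. Of the members, 26 had a positive and 7 a negative log2 fold change, and 13 had an unadjusted p below 0.05, which 39.7% of all genes had. The libraries of the groups did not overlap for 14 members on the higher side and 2 on the lower side, together 48.5% of the members. Over all genes these shares were 22.3% higher and 23.4% lower, together 45.7%. In the same test, no member was lower, and 2 had an unadjusted p below 0.05 on the lower side (Atg12 and Atg4a). DESeq2 called 7 members higher and 1 lower (Atg12), with 14.1% of all genes higher and 18.8% lower. Limma called 6 higher and none lower, with 10.8% and 14.2% of all genes. Upper-quartile scaling gave 3 higher and 1 lower, with 7.45% and 16.9% of all genes.

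**Figure D1:**
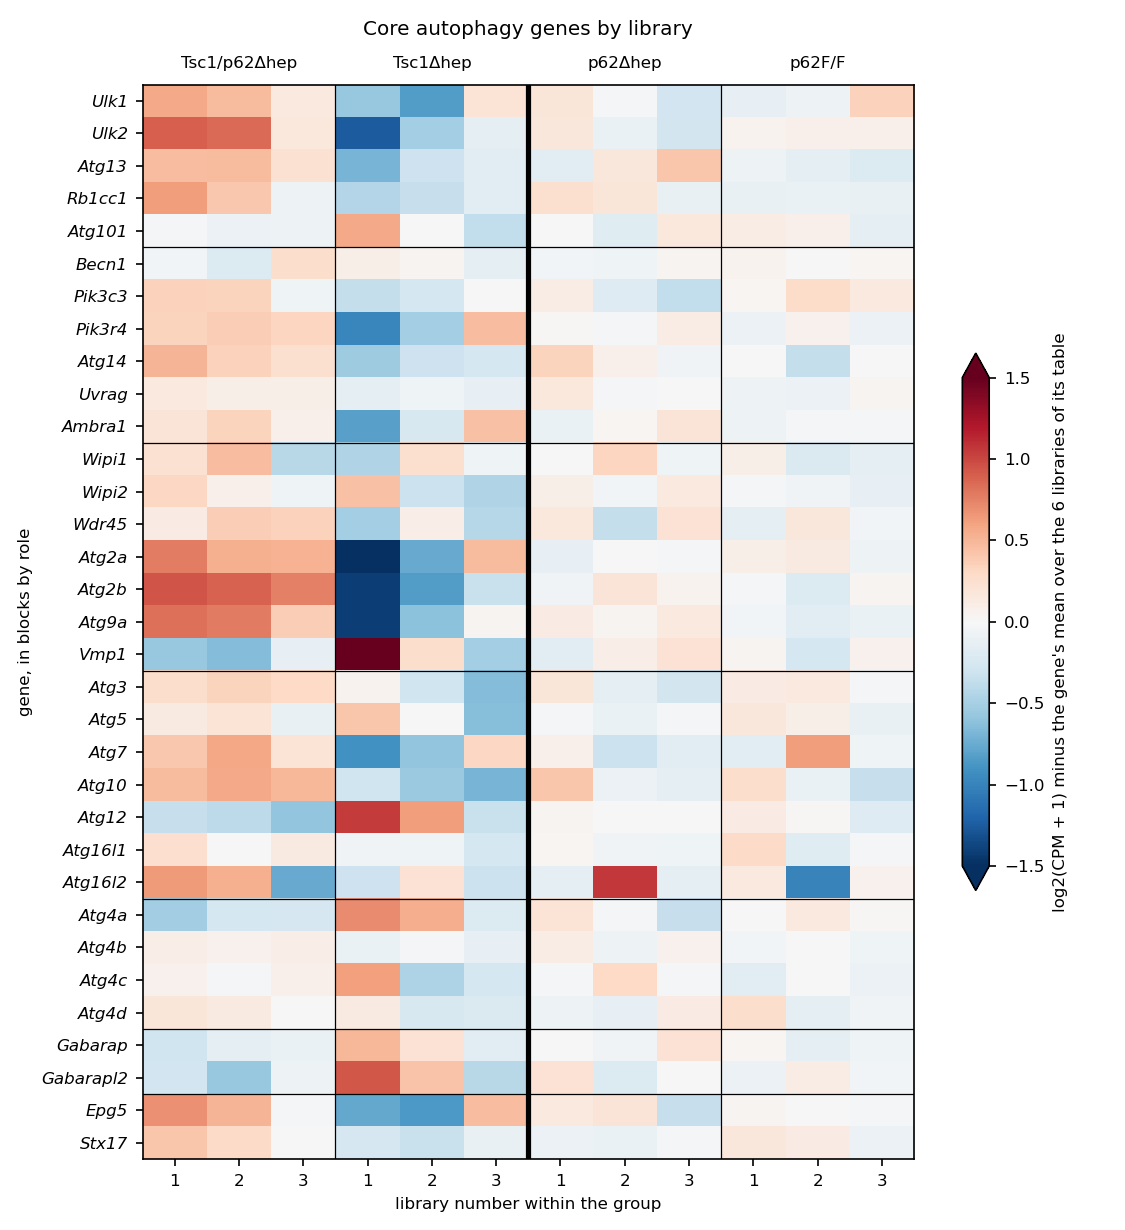
Each row is a core autophagy gene, in blocks by role from the ULK complex at the top to the fusion factors at the bottom, and each column is 1 of 12 libraries. Colour gives log2(CPM + 1) minus the gene's mean over the 6 libraries of its own table (red above, blue below), so the Tsc1/p62Δhep and Tsc1Δhep columns are not on a common scale with the p62Δhep and p62F/F columns. The Tsc1Δhep columns differ among themselves in many rows, as in Atg2a and Vmp1, while the p62Δhep and p62F/F columns are pale except for Atg16l2.

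In the ULK complex, 2 of 5 members rose. Ulk2, 1 of the paired initiating kinases, had 102, 98.8 and 61.0 CPM in Tsc1/p62Δhep, against 22.4, 37.9 and 49.7 CPM in Tsc1Δhep. All 3 libraries without p62 lay above all 3 with it, although library 3 of each group came close. The log2 fold change was 1.25 ± 0.34 (SE), which is 2.38-fold, with an adjusted p of 0.0349 by edgeR. Atg13, the regulatory subunit that links the kinase to the rest of the complex, had 72.6, 73.4 and 61.6 CPM in Tsc1/p62Δhep, against 31.9, 42.1 and 46.9 CPM in Tsc1Δhep, without overlap. Its log2 fold change was 0.78 ± 0.22 (edgeR adjusted p = 0.0373). Ulk1, the better studied kinase of the pair, had 126, 117 and 93.9 CPM in Tsc1/p62Δhep, against 56.7, 46.9 and 97.9 CPM in Tsc1Δhep. Library 3 of Tsc1Δhep lay inside the range without p62, and the log2 fold change of 0.74 did not pass (edgeR adjusted p = 0.115). Rb1cc1, the large scaffold also called FIP200, had 116, 99.0 and 70.9 CPM in Tsc1/p62Δhep, against 54.9, 58.8 and 66.5 CPM in Tsc1Δhep. These groups did not overlap, yet its log2 fold change of 0.67 did not pass either (edgeR adjusted p = 0.0772). Atg101, the stabilising partner of ATG13, had a log2 fold change of −0.19, with 19.7 to 20.6 CPM in Tsc1/p62Δhep inside the 16.1 to 31.5 CPM of Tsc1Δhep.

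In the phosphatidylinositol 3-kinase complex, 1 of 6 members rose. Atg14, the subunit that directs the kinase to autophagosome formation, had 37.0, 33.03 and 30.6 CPM in Tsc1/p62Δhep, against 17.4, 20.6 and 21.3 CPM in Tsc1Δhep. Its libraries were well apart between groups and close within them, with a log2 fold change of 0.76 ± 0.20 (edgeR adjusted p = 0.0304). Its promoter, shown above, holds a CLEAR core. Uvrag, the alternative subunit that takes the place of ATG14 in an endosomal form of the complex, had 51.0 to 53.4 CPM in Tsc1/p62Δhep, against 43.7 to 45.8 CPM in Tsc1Δhep. The groups did not overlap, and its log2 fold change of 0.22 did not pass (edgeR adjusted p = 0.369). The lipid kinase itself, Pik3c3 or VPS34, had a log2 fold change of 0.43, and its regulatory subunit Pik3r4 had 0.58, both with overlapping groups. Becn1, the BECLIN 1 subunit, had 79.4, 70.4 and 97.9 CPM in Tsc1/p62Δhep, against 86.4, 83.9 and 73.4 CPM in Tsc1Δhep, a log2 fold change of 0.02. Ambra1, which binds BECLIN 1, had 0.34, with 34.1 to 41.0 CPM in Tsc1/p62Δhep and 17.9 to 43.9 CPM in Tsc1Δhep.

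Among the PI3P readers and the factors that move lipid to the growing membrane, 2 of 7 members rose, and here the changes were also widest. Atg2b, 1 of a pair of bridge-like lipid transfer proteins, had 61.7, 59.1 and 53.9 CPM in Tsc1/p62Δhep, against 11.2, 17.2 and 24.8 CPM in Tsc1Δhep. The lowest library without p62 stood far above the highest with it, and the mean ± SD was 58.2 ± 3.94 CPM, against 17.8 ± 6.82 CPM (n = 3 each). The log2 fold change was 1.71 ± 0.30, which is 3.28-fold, with an edgeR adjusted p of 0.00772. Atg9a, the membrane-spanning scramblase of the vesicles that seed the autophagosome, had 101, 97.0 and 73.2 CPM in Tsc1/p62Δhep, against 20.5, 36.5 and 57.9 CPM in Tsc1Δhep. Its groups did not overlap, and its log2 fold change was 1.24 ± 0.37 (edgeR adjusted p = 0.0471). Atg2a, the paralogue of Atg2b, had 76.9, 65.1 and 64.7 CPM in Tsc1/p62Δhep, against 14.7, 26.0 and 62.7 CPM in Tsc1Δhep. Library 3 of Tsc1Δhep reached almost the level without p62, and the log2 fold change of 1.00 ± 0.48 did not pass (edgeR adjusted p = 0.158). Vmp1, a scramblase of the endoplasmic reticulum that acts with the ATG2 proteins, had 114, 108 and 155 CPM in Tsc1/p62Δhep, against 506.4, 204 and 119 CPM in Tsc1Δhep. It thus differed from Atg2a in being highest in library 1 of Tsc1Δhep, and its log2 fold change of −1.14 ± 0.50 did not pass (edgeR adjusted p = 0.134). The PI3P readers Wipi1, Wipi2 and Wdr45 had log2 fold changes of 0.21, 0.17 and 0.55, none past the threshold. Of these, Wdr45 was without overlap, with 45.3 to 54.0 CPM in Tsc1/p62Δhep and 28.8 to 44.7 CPM in Tsc1Δhep.

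**Figure D2:**
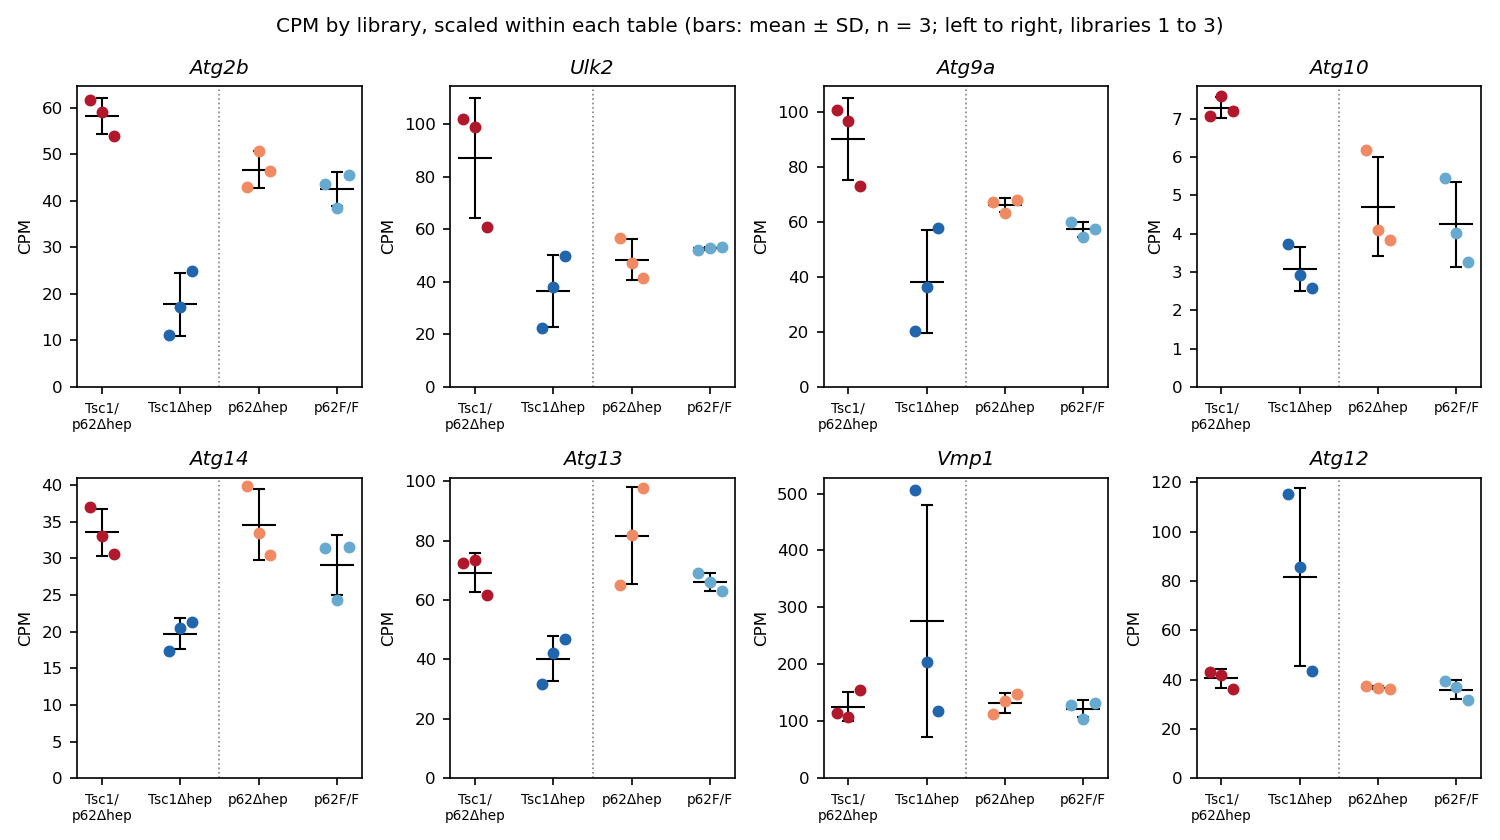
Points are CPM of single libraries, scaled within each table, for the 6 members that rose in Tsc1/p62Δhep against Tsc1Δhep and for Vmp1 and Atg12, and bars are mean ± SD (n = 3). The dotted line parts the Tsc1/p62Δhep and Tsc1Δhep table from the p62Δhep and p62F/F table, and levels across it were not tested. For Atg2b, the Tsc1/p62Δhep libraries sit at 53.9 to 61.7 CPM and the Tsc1Δhep libraries at 11.2 to 24.8 CPM, while p62Δhep and p62F/F overlap.

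Of the 7 conjugation enzymes and their partners, 1 rose. Atg10, the E2-like enzyme that joins ATG12 to ATG5, had 7.06, 7.60 and 7.21 CPM in Tsc1/p62Δhep, against 3.73, 2.93 and 2.58 CPM in Tsc1Δhep. The groups were apart at a low level, with a log2 fold change of 1.24 ± 0.28 (edgeR adjusted p = 0.0180). Its partner Atg12, the ubiquitin-like protein itself, had 43.3, 41.8 and 36.3 CPM in Tsc1/p62Δhep, against 115, 85.8 and 43.6 CPM in Tsc1Δhep. Library 3 of Tsc1Δhep stood just above the highest library without p62, so the groups did not overlap, and the log2 fold change of −1.01 ± 0.34 did not pass (edgeR adjusted p = 0.0686). Atg3, the E2-like enzyme for ATG8 proteins whose promoter is shown above, had 107, 112 and 109 CPM in Tsc1/p62Δhep, against 91.5, 72.0 and 56.0 CPM in Tsc1Δhep. It was without overlap and had a log2 fold change of 0.58 (edgeR adjusted p = 0.105). Atg7, the shared E1-like enzyme, had 73.7, 84.0 and 64.5 CPM in Tsc1/p62Δhep, against 29.1, 36.7 and 69.2 CPM in Tsc1Δhep, a log2 fold change of 0.72 with overlapping groups (edgeR adjusted p = 0.150). Atg5, the acceptor of ATG12, had 0.10, Atg16l1, the subunit that places the complex on the membrane, had 0.26, and its paralogue Atg16l2 had 0.42, none past the threshold.

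Neither the 4 ATG4 proteases nor the 2 ATG8 proteins nor the 2 fusion factors gave a call. Atg4a, 1 of the cysteine proteases that trim and release ATG8 proteins, had 5.65, 6.95 and 7.01 CPM in Tsc1/p62Δhep, against 14.6, 12.9 and 7.27 CPM in Tsc1Δhep. Its groups were just without overlap, with a log2 fold change of −0.83 (edgeR adjusted p = 0.0948). The main protease of the family, Atg4b, had 31.7 to 32.6 CPM in Tsc1/p62Δhep and 27.6 to 29.7 CPM in Tsc1Δhep, a log2 fold change of 0.18. Atg4c had −0.01 and Atg4d 0.21. Gabarapl2, an ATG8 protein, had 16.04, 13.0 and 18.7 CPM in Tsc1/p62Δhep, against 38.4, 26.8 and 14.5 CPM in Tsc1Δhep. Library 3 of Tsc1Δhep fell inside the range of the group without p62, and the log2 fold change was −0.74 (edgeR adjusted p = 0.166). Gabarap, the founding member of that subfamily, had 237, 262 and 271 CPM in Tsc1/p62Δhep, against 410.1, 338 and 260.2 CPM in Tsc1Δhep, a log2 fold change of −0.39 (edgeR adjusted p = 0.258). Stx17, the SNARE that carries out fusion with the lysosome, had 43.4, 39.8 and 32.2 CPM in Tsc1/p62Δhep, against 27.2, 25.5 and 29.99 CPM in Tsc1Δhep, without overlap and with a log2 fold change of 0.48 (edgeR adjusted p = 0.121). Epg5, the tether for that fusion, had 0.69 with overlapping groups.

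The calls rested on single libraries to different degrees. Without 1 library in turn, the number of members called was 1 without Tsc1/p62Δhep library 1, 1 without its library 2, 2 without its library 3, 6 without Tsc1Δhep library 1, 1 without its library 2 and 17 without its library 3. Where the members' calls fell, those over all genes fell too, from 9.25% higher and 14.9% lower. Without Tsc1/p62Δhep library 1, 2 or 3, 2.69%, 2.94% and 5.12% of all genes were higher, and 5.82%, 6.11% and 9.37% lower. Without Tsc1Δhep library 1 or 2, 9.16% and 3.51% were higher, and 14.8% and 9.1% lower. Atg2b kept its call in all 6 of these fits. Ulk2 lost its call without Tsc1/p62Δhep library 1 or 2 or Tsc1Δhep library 2. Atg9a, Atg10 and Atg14 lost theirs without any 1 of the Tsc1/p62Δhep libraries or without Tsc1Δhep library 2, and Atg13 without any library other than Tsc1Δhep library 3. The 17 members called without Tsc1Δhep library 3 were 13 higher, the 6 named above with Ulk1, Rb1cc1, Pik3r4, Ambra1, Atg2a, Atg7 and Epg5, and 4 lower, Vmp1, Atg12, Atg4a and Gabarapl2. In that fit 20.9% of all genes were called higher and 24.4% lower, so calls rose across the table and not for the members alone.

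**Figure D3:**
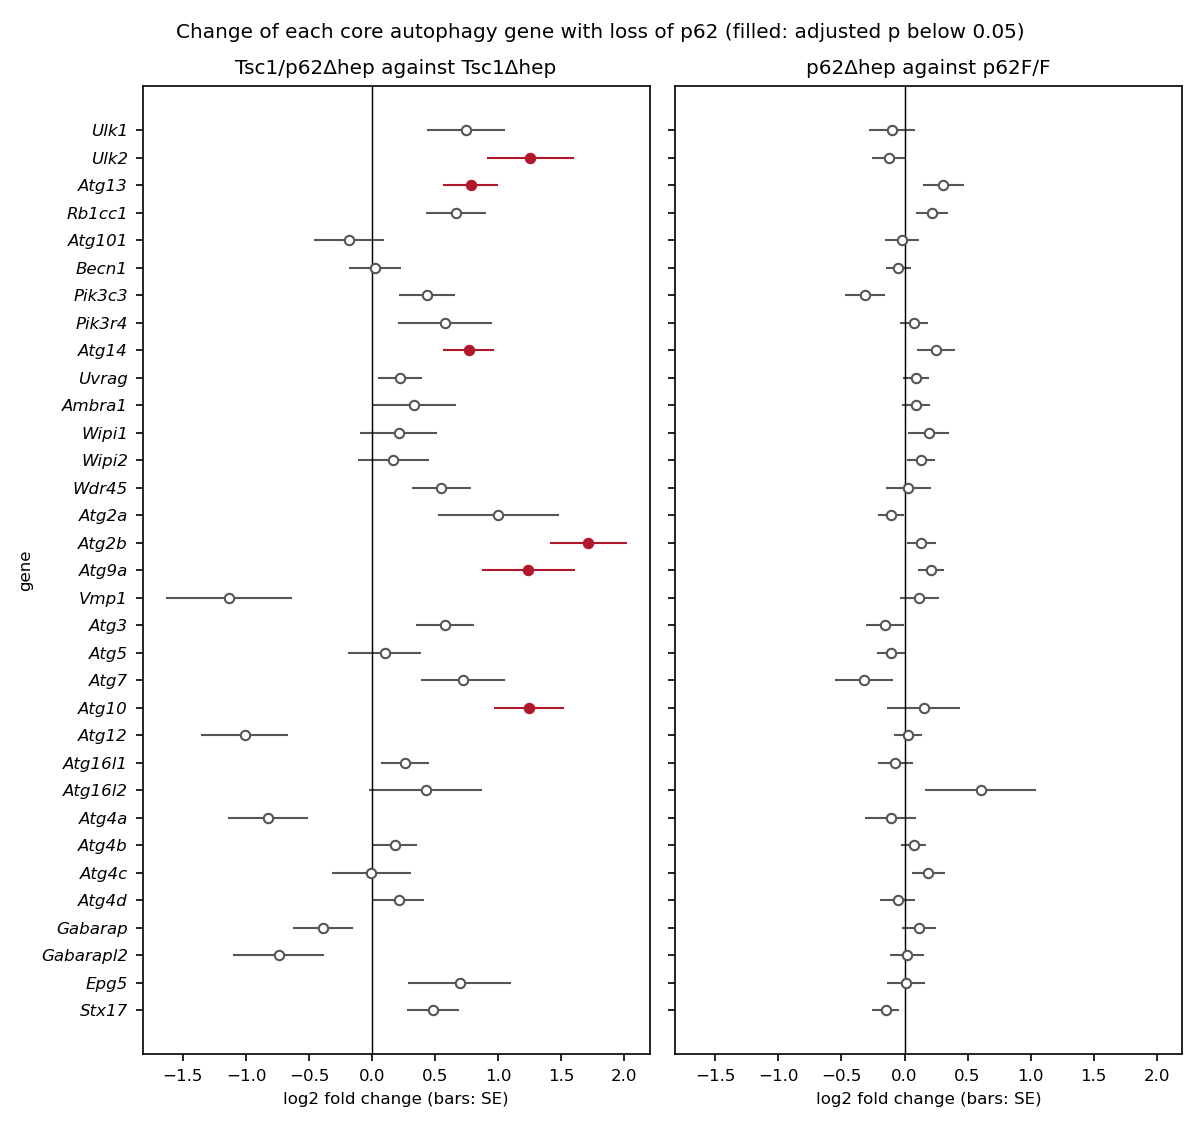
Points are log2 fold changes of the 33 members and bars their SE from edgeR's quasi-likelihood fit, at the left for Tsc1/p62Δhep against Tsc1Δhep and at the right for p62Δhep against p62F/F, both on the same scale. Filled red points have an adjusted p below 0.05, which 6 members reach at the left and none at the right. At the left the values run between −1.14 for Vmp1 and 1.71 for Atg2b, at the right between −0.32 for Atg7 and 0.60 for Atg16l2.

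Tsc1Δhep was the variable group. The ratio of its highest to its lowest library had a median of 1.87 over the members and exceeded 2 for 15 of 33, or 45.5%. In Tsc1/p62Δhep, p62Δhep and p62F/F the median was 1.21, 1.28 and 1.16, and only Atg16l2 exceeded 2. All genes showed the same order, with a median ratio of 1.83 in Tsc1Δhep, where 42.5% exceeded 2, against 13.5% to 14.8% in the other groups. The ratio was widest for Vmp1, at 4.26, followed by Atg2a, at 4.25, and these genes had their extremes in opposite libraries. Library 1 of Tsc1Δhep was the highest of its group for 14 members and the lowest for 14, and library 3 likewise for 14 and 14. Library 3 lay nearer to the Tsc1/p62Δhep mean than to the mean of Tsc1Δhep libraries 1 and 2 for 17 of 33 members, or 51.5%, beside 53.8% of all genes.

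Markers of other cells moved with the same groups. Summed hepatocyte markers were 83968 to 116955 CPM in Tsc1/p62Δhep, against 29426 to 62959 CPM in Tsc1Δhep, and 6 of 10 were called higher. Summed cholangiocyte markers were 86.4 to 136 CPM in Tsc1/p62Δhep, against 5294, 2242 and 766 CPM in Tsc1Δhep libraries 1 to 3, and 3 of 7 tested were lower. Macrophage markers came to 109 to 127 CPM in Tsc1/p62Δhep, against 269 to 422 CPM in Tsc1Δhep, with 6 of 10 lower. Proliferation markers came to 3.21 to 9.74 CPM in Tsc1/p62Δhep, against 37.8 to 64.2 CPM in Tsc1Δhep, with 4 of 5 lower. Stellate markers came to 188 to 251 CPM in Tsc1/p62Δhep, against 71.8 to 365 CPM in Tsc1Δhep, with 5 of 10 lower. Endothelial markers came to 142 to 188 CPM in Tsc1/p62Δhep, against 48.7 to 238 CPM in Tsc1Δhep, with 1 of 10 lower. Neutrophil markers came to 0.353 to 0.779 CPM in Tsc1/p62Δhep, against 1.76 to 10.7 CPM in Tsc1Δhep, with both of the 2 tested lower. Of the erythroid markers 1 of 2 tested was higher, Hba-a1 was at 0 in all 12 libraries, and no T, NK, B or plasma cell marker was called. The part of these markers in the members' values was not tested.

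Members differed in transcript length, and their log2 fold changes in Tsc1/p62Δhep against Tsc1Δhep went along with it. Across the 33 members, Spearman's rho between the log2 fold change and the length of the longest coding transcript was 0.41, and across 12537 genes it was 0.21. With GC content rho was 0.26 across the members and 0.00 across all genes. These correlations are across genes of the same 6 libraries, which are not independent replicates. The median log2 fold change was −0.04 for 8 members under 2500 bases, 0.26 for 13 members of 2500 to 5000 bases and 0.57 for 12 members over 5000 bases, beside −0.28, 0.00 and 0.26 over all genes of the same classes. Each class of members thus had a higher median than all genes of its length. Atg10 and Atg12 departed from the trend, at 1583 and 4765 bases. When limma was used after removing the trends with GC content and length from each library, 11 members were higher and none lower, the 6 named above among them. In that fit 18.4% of all genes were called higher and 15.5% lower, against 10.8% and 14.2% by limma without that step, so calls on the higher side increased across the table.

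**Figure D4:**
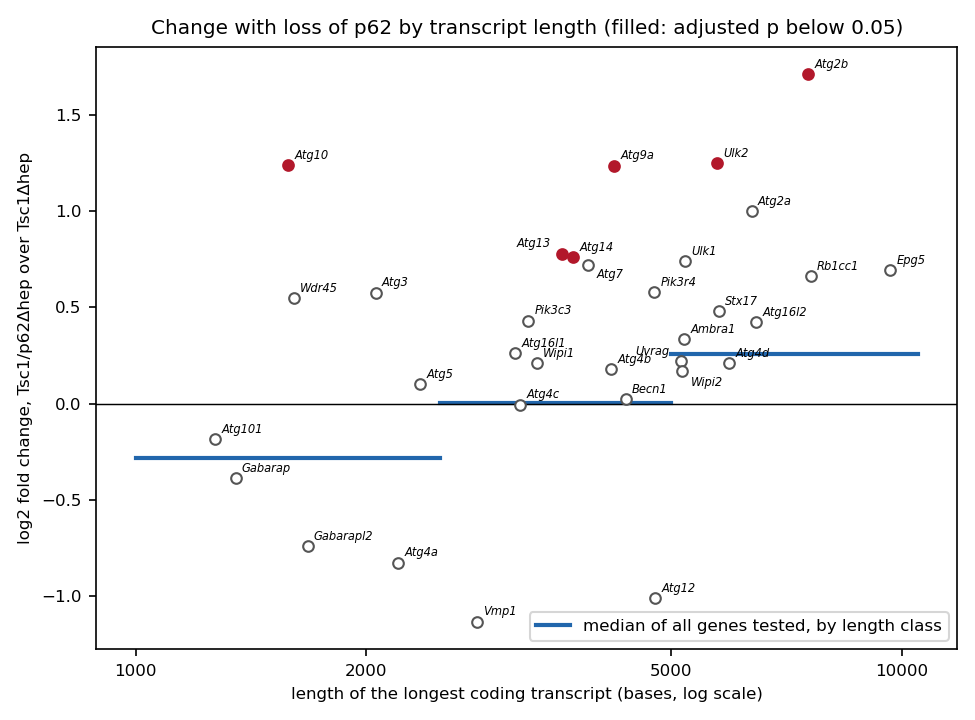
Each point is a member, placed by the length in bases of its longest coding transcript (log axis) and its log2 fold change in Tsc1/p62Δhep against Tsc1Δhep, and filled red points have an edgeR adjusted p below 0.05. Blue lines are medians of all genes tested in 3 length classes, −0.28, 0.00 and 0.26. Atg2b, at 7546 bases, stands at the top right, and Vmp1, at 2787 bases, at the bottom.

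Annotated overlaps bear on 3 of the 6 called members, and the sources used here do not say whether the authors counted by strand, which would part the opposite-strand pairs only. The overlaps are by GENCODE on GRCm38, and the gene spans in brackets are by RefSeq on GRCm38.p6. Exons of Atg2b (chr12:105613539-105685297) overlap those of Gskip on the other strand. Exons of Atg9a (chr1:75180861-75192010) overlap those of Ankzf1 on the other strand and of the processed transcript Gm29253 on the same strand. Exons of Atg14 (chr14:47540893-47568434) overlap an antisense transcript. Gskip, whose product binds the kinase GSK3, had 19.9, 13.8 and 20.5 CPM in Tsc1/p62Δhep, against 43.8, 36.8 and 15.8 CPM in Tsc1Δhep, so its values ran opposite to those of Atg2b (log2 fold change −0.83, edgeR adjusted p = 0.147). Ankzf1, a factor of ribosome quality control, had 20.6, 19.1 and 12.2 CPM in Tsc1/p62Δhep, against 9.14, 10.1 and 12.5 CPM in Tsc1Δhep, with a log2 fold change of 0.71 (edgeR adjusted p = 0.0998). Vmp1 holds the microRNA gene Mir21a in its exons on the same strand. Ulk2 (chr11:61775598-61855334), Atg13 (chr2:91674612-91710597) and Atg10 (chr13:90935348-91224725) overlap no exon of another annotated gene.

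With Tsc1 intact, loss of p62 in hepatocytes was accompanied by no called change in any of the 33 members. By edgeR's quasi-likelihood test over 12567 genes, 0 members had an adjusted p below 0.05, and none had an unadjusted p below 0.05, which 8.12% of all genes had. Over all genes, 0.0% were called higher and 0.0159% lower in p62Δhep, so few calls were made anywhere in this comparison. DESeq2 and limma also called no member, with 0.263% of all genes higher and 1.08% lower by DESeq2, and 0.0% and 0.0318% by limma. The members' adjusted p-values lay between 0.649 and 0.989. Their median log2 fold change was 0.03 beside 0.00 for all genes, with 20 positive and 13 negative values.

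The groups did not overlap for 1 of 33 members, or 3.03%. Over all genes 6.17% were without overlap on the higher side and 6.65% on the lower side, together 12.8%. That member was Atg9a, on the higher side, with 67.4, 63.2 and 68.2 CPM in p62Δhep, against 59.9, 54.6 and 57.6 CPM in p62F/F, a log2 fold change of 0.21 ± 0.10 (edgeR adjusted p = 0.649). Atg2b had 43.0, 50.8 and 46.4 CPM in p62Δhep, against 43.6, 38.6 and 45.7 CPM in p62F/F, a log2 fold change of 0.13 ± 0.11 (edgeR adjusted p = 0.799). Ulk2 had 56.8, 47.1 and 41.5 CPM in p62Δhep, against 52.1, 52.9 and 53.2 CPM in p62F/F, a log2 fold change of −0.12 ± 0.13 (edgeR adjusted p = 0.838). Both genes that stood out with Tsc1 deleted thus had overlapping groups here. The widest value belonged to Atg16l2, the less abundant ATG16L paralogue, with 11.7, 28.1 and 11.7 CPM in p62Δhep, against 14.4, 5.96 and 13.5 CPM in p62F/F. Library 2 was the odd one in each group, in opposite directions, and the log2 fold change of 0.60 ± 0.44 did not pass (edgeR adjusted p = 0.763). At the other end, Atg7 had 30.6, 22.9 and 25.8 CPM in p62Δhep, against 25.9, 45.5 and 27.8 CPM in p62F/F, where library 2 again stood apart (log2 fold change −0.32 ± 0.23, edgeR adjusted p = 0.757). Atg12 and Vmp1, which were variable in Tsc1Δhep, were steady here, at 36.1 to 37.4 CPM in p62Δhep and 31.6 to 39.5 CPM in p62F/F for Atg12, and 113 to 147 CPM in p62Δhep and 105 to 132 CPM in p62F/F for Vmp1. No marker gene of the lists above was called in this comparison.

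Whether loss of p62 acted differently with and without Tsc1 was tested as the interaction in 1 edgeR fit of all 12 libraries and 13231 genes. The difference was called for 2 of 33 members, Atg2b and Ulk2, both with a larger log2 fold change where Tsc1 was deleted. That is 6.06% of the members, beside 6.76% of all genes on the higher side and 9.32% on the lower side, so the share is near the background. For Atg2b the difference of the log2 fold changes was 1.57 ± 0.33 (edgeR adjusted p = 0.0102), and for Ulk2 it was 1.37 ± 0.39 (edgeR adjusted p = 0.0349). The median over the members was 0.33 beside −0.07 over all genes, with 11 of 33 members at an unadjusted p below 0.05, which 33.7% of all genes had. None was called lower. Vmp1, at −1.26, and Atg12, at −1.04, had the lowest values, with edgeR adjusted p of 0.143 and 0.0811. For the other 4 members that rose with Tsc1 deleted, the difference did not pass. It was 1.09 for Atg10 (edgeR adjusted p = 0.0791), 1.02 for Atg9a (edgeR adjusted p = 0.107), 0.51 for Atg14 (edgeR adjusted p = 0.165) and 0.46 for Atg13 (edgeR adjusted p = 0.242). DESeq2 called 4 members higher, adding Atg10 and Stx17, with 10.1% of all genes higher and 12.7% lower. Limma called 2, with 7.63% of all genes higher and 9.33% lower. Any scaling common to a table drops out of this contrast, but an effect of Cre does not, because p62F/F alone lacks it. Table effects that differ from gene to gene need not drop out either, and the 2 Tsc1 states lie in different tables. Counts of the ribosomal RNA entry Rn45s were 1.91% to 3.5% of the total in p62Δhep and p62F/F. They were 0.0751% to 1.21% in Tsc1/p62Δhep and Tsc1Δhep. The part of such table effects was not tested.

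In the interaction fit, too, Atg2b kept its call whichever of the 12 libraries was left out. The number of members called was 15 without Tsc1Δhep library 3, of which 10 were higher and 5 lower (Vmp1, Atg12, Atg4a, Gabarap and Gabarapl2). In that fit 17.8% of all genes were called higher and 18.9% lower. The number was 4 without p62Δhep library 1, 3 without Tsc1/p62Δhep library 3 or Tsc1Δhep library 1, and 1 without Tsc1/p62Δhep library 1 or 2, Tsc1Δhep library 2, p62Δhep library 2 or 3, or any 1 of the p62F/F libraries. In each of these last fits the call that was lost was that of Ulk2. In the same fits, 3.44% to 4.84% of all genes were called higher and 4.98% to 6.86% lower, so calls fell across the table too. In the fits with 3 or 4 members called, 5.79% to 7.09% of all genes were higher and 8.22% to 9.1% lower.

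Set side by side on library totals, without a test across tables, the 4 groups ordered the members in a way that depended on the scaling. The mean was highest in Tsc1/p62Δhep for 14 members, in Tsc1Δhep for 15, in p62Δhep for 4 and in p62F/F for none. With TMM scaling over the 12 libraries, an alternative chosen after seeing the data, it was highest in Tsc1/p62Δhep for 23, in Tsc1Δhep for 4, in p62Δhep for 5 and in p62F/F for 1. Over all genes, Tsc1/p62Δhep was highest for 15.9% and Tsc1Δhep for 50.8% by library totals, and for 25.8% and 37.0% by TMM. By library totals all 3 Tsc1Δhep libraries lay above the other 9 for Becn1, Vmp1, Atg12 and Gabarap (12.1% of the members, 22.6% of all genes), and below them for Atg14 and Atg2b (6.06% of the members, 4.29% of all genes). By TMM they lay above for Atg12 alone (3.03%, against 12.2% of all genes) and below for Atg13, Atg14, Atg2b and Stx17 (12.1%, against 1460 of 13231 genes). Becn1, Vmp1 and Gabarap thus lost that place under scaling, as in the scaled values given above, where they overlapped Tsc1/p62Δhep. The means that follow are by library totals. Gabarap averaged 227 ± 13.0 CPM in Tsc1/p62Δhep, 375 ± 59.3 in Tsc1Δhep, 217 ± 24.9 in p62Δhep and 203 ± 3.76 in p62F/F (SD, n = 3 each). Atg12 averaged 35.9 ± 3.97 CPM in Tsc1/p62Δhep, 90.2 ± 34.9 in Tsc1Δhep, 36.5 ± 3.44 in p62Δhep and 36.2 ± 3.67 in p62F/F. Apart from Tsc1Δhep, the Atg12 means thus lay within 1 SD of each other. Atg2b averaged 51.7 ± 4.48 CPM in Tsc1/p62Δhep, 20.4 ± 9.24 in Tsc1Δhep, 46.3 ± 1.38 in p62Δhep and 42.8 ± 3.36 in p62F/F. Atg14 averaged 29.8 ± 3.37 CPM in Tsc1/p62Δhep, 22.4 ± 3.77 in Tsc1Δhep, 34.6 ± 7.47 in p62Δhep and 29.2 ± 3.03 in p62F/F.

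Per kilobase of transcript, the members' levels spanned a wide range, and the same genes stood at its ends in each group. Gabarap was the highest, with 168 CPM per kilobase in Tsc1/p62Δhep, 278 in Tsc1Δhep, 161 in p62Δhep and 150.3 in p62F/F. Atg16l2 was the lowest, with 1.07 CPM per kilobase in Tsc1/p62Δhep, 1.00 in Tsc1Δhep, 2.60 in p62Δhep and 1.73 in p62F/F. Vmp1 had 39.9 CPM per kilobase in Tsc1/p62Δhep and 109 in Tsc1Δhep, and Atg3 had 47.0 in Tsc1/p62Δhep and 39.7 in Tsc1Δhep, and these 2 genes followed Gabarap in the order of every group. Atg2b had 6.85 CPM per kilobase in Tsc1/p62Δhep and 2.70 in Tsc1Δhep, and its paralogue Atg2a had 9.59 in Tsc1/p62Δhep and 6.32 in Tsc1Δhep. Gabarapl2 was well below Gabarap in every group, at 8.39 CPM per kilobase in Tsc1/p62Δhep, 17.5 in Tsc1Δhep, 20.9 in p62Δhep and 20.7 in p62F/F.

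Other genes of the pathway were read from a list of 32 accessory genes, of which 31 passed the filter in the table with deleted Tsc1 and all 32 in the other fits. In Tsc1/p62Δhep against Tsc1Δhep, 2 of 31 rose and 1 fell, and the median log2 fold change was 0.04. These are 6.45% higher and 3.23% lower, below the 9.25% and 14.9% of all genes. Zfyve1, which encodes the PI3P-binding omegasome marker DFCP1, had 104, 97.4 and 84.5 CPM in Tsc1/p62Δhep, against 28.0, 39.7 and 55.8 CPM in Tsc1Δhep (log2 fold change 1.21, edgeR adjusted p = 0.0199). Tecpr2, an ATG8-binding protein, had 11.2, 11.7 and 13.4 CPM in Tsc1/p62Δhep, against 4.90, 5.74 and 7.09 CPM in Tsc1Δhep (log2 fold change 1.03, edgeR adjusted p = 0.0245). Bcl2, the apoptosis inhibitor that also binds and restrains BECLIN 1, had 1.13, 1.18 and 1.36 CPM in Tsc1/p62Δhep, against 7.63, 11.4 and 4.22 CPM in Tsc1Δhep (log2 fold change −2.66, edgeR adjusted p = 0.00598). All 3 were without overlap. Without 1 library in turn, Bcl2 kept its call, and the number of accessory genes called was 1 without Tsc1/p62Δhep library 1 or 2 or Tsc1Δhep library 2, 2 without Tsc1/p62Δhep library 3, 3 without Tsc1Δhep library 1 and 12 without Tsc1Δhep library 3. In the fit without Tsc1Δhep library 3, 20.9% of all genes were called higher and 24.4% lower. The shares for the other fits are given with the members above. In p62Δhep against p62F/F, edgeR called 0 of 32, with 3 at an unadjusted p below 0.05 (8.12% of all genes), and DESeq2 and limma called none.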

How the data were processed

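Poly(A) RNA of mouse liver had been sequenced in 12 libraries, 3 in each of 4 groups. The authors deposited 2 tables of gene counts, 1 with Tsc1/p62Δhep and Tsc1Δhep and 1 with p62Δhep and p62F/F, holding whole numbers with unequal library totals, so they were used as counts with no normalization. As genome build, hg19 (human) is listed in the submitters' processing notes, although the symbols are of mouse; the aligner, counter, annotation and strand setting are not stated there, and no coordinates of hg19 were used. Of 23420 symbols, 21571 matched RefSeq symbols, 1686 older ones and 163 neither. Gene spans and promoter sequences come from RefSeq on GRCm38.p6, and transcript lengths and exon overlaps from GENCODE on GRCm38.

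Groups and numbers were taken from the sample titles. Replicates of a group differed by a chi-square of 36.2 to 325 per gene, over genes with at least 20 counts, so none was counted as 1 sample. Each table was fitted on its own with edgeR 4.0.16 in R 4.3.3 (filterByExpr with a minimum count of 10 and a total of 15, TMM scaling, quasi-likelihood test, Benjamini-Hochberg over all genes tested, threshold 0.05), and the interaction in a joined fit. DESeq2 1.42.0, limma 3.58.1 on log2(CPM + 1), other scalings, no filter, GC and length correction with splines of 5 degrees of freedom, a replicate block and left-out libraries were alternatives. The scripts were tested on simulated counts, with 100 genes changed 2-fold and 100 changed 4-fold. For Tsc1/p62Δhep against Tsc1Δhep, 0 of the 2-fold and 62 of the 4-fold changes were called. These were 43 and 87 for p62Δhep against p62F/F, and 3 and 37 for the interaction. Such shares depend on how many genes change, so they do not carry over to the real counts. A member that did not pass is not shown to be unchanged. The text names all 33 members, Sqstm1 and Tsc1, accessory genes with an adjusted p below 0.05, and genes overlapping a called member, which were added afterwards. The members and lists were chosen with earlier results of these data known.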

Additional observations from a re-analysis of the deposited data

Results flagged for a closer look

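For 2 members the effect of losing p62 differed between the Tsc1 backgrounds by the test of the difference itself, the interaction in edgeR's quasi-likelihood fit of 12 libraries. That is 6.06% of the members, near the 6.76% of all genes called higher (9.32% were called lower). The difference of the log2 fold changes (Tsc1 deleted minus Tsc1 intact) was 1.57 for Atg2b (adjusted p = 0.0102), where the log2 fold change was 1.71 for Tsc1/p62Δhep against Tsc1Δhep and 0.13 for p62Δhep against p62F/F. It was 1.37 for Ulk2 (adjusted p = 0.0349), where these log2 fold changes were 1.25 and −0.12.

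The same test called 3 of 32 accessory genes and the deleted gene. Of the accessory genes 6.25% were higher and 3.12% lower, beside 6.76% and 9.32% of all genes, so these shares do not exceed the background. The difference was −2.48 for Bcl2 (edgeR adjusted p = 0.00873), 1.20 for Tecpr2 (edgeR adjusted p = 0.0228) and 1.03 for Zfyve1 (edgeR adjusted p = 0.0427). The called set of accessory genes was 13 without Tsc1Δhep library 3, 1 without Tsc1Δhep library 2, p62Δhep library 3 or p62F/F library 1, and 2 or 3 without any other library. In the fit without Tsc1Δhep library 3, 17.8% of all genes were called higher and 18.9% lower. Over 20 alternatives Zfyve1 lost its call in 12, Tecpr2 in 5 and Bcl2 in none. For Sqstm1 the difference was −1.52 (edgeR adjusted p = 0.0101), with 1210.0, 788.8 and 1002 CPM in Tsc1Δhep and 315.5, 351.4 and 349.4 CPM in p62F/F as the groups that kept the gene. Both groups with deleted p62 lay at 12.4 to 19.8 CPM, so this difference follows the levels of the groups that kept the gene. These lie in different tables, across which levels were not tested. With the replicate block the Sqstm1 call was lost (edgeR adjusted p = 0.0562).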

How the results depend on the processing

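In p62Δhep against p62F/F, the count of members and of accessory genes called was 0 under every alternative run. In Tsc1/p62Δhep against Tsc1Δhep, removing the GC and length trend with limma gave 11 members and 5 accessory genes in place of 6 and 3. In that fit 18.4% of all genes were higher and 15.5% lower. Fitting all 12 libraries at once gave 13 and 6, with 10 members higher and 3 lower, and 17.0% of all genes higher and 22.3% lower. Leaving out both Tsc1Δhep library 3 and Tsc1/p62Δhep library 1 gave 9 and 6, with 8 members higher and 1 lower and only 3 of the 6 among them, and 11.3% of all genes higher and 14.7% lower. In the interaction, in place of 2 members and 3 accessory genes, DESeq2 gave 4 and 5 (10.1% of all genes higher, 12.7% lower). The GC and length correction gave 8 and 5 (11.6% of all genes higher, 11.2% lower), and leaving out both libraries gave 12 and 9 (14.4% higher, 14.5% lower). Without 1 library in turn, the counts ran from 1 to 17 members and 1 to 12 accessory genes in Tsc1/p62Δhep against Tsc1Δhep, and from 1 to 15 and 1 to 13 in the interaction. Over all genes, 2.69% to 20.9% were then called higher and 5.82% to 24.4% lower in Tsc1/p62Δhep against Tsc1Δhep. For the interaction these shares were 3.44% to 17.8% and 4.98% to 18.9%. The cause of these shifts was not tested. Atg2b and Bcl2 kept their calls in all 15 alternatives of the comparison (highest adjusted p 0.0428 for Atg2b) and all 20 of the interaction. Ulk2 lost its call in 4 of 15 and 9 of 20, Atg13 in 8, Atg14 in 7 and Atg9a and Atg10 in 6 of 15. Of 442 values under alternatives, for 27 chosen pairs of a gene and a comparison, 68 lost and 15 gained a call and none reversed. These pairs were mostly called genes or genes with wide values and do not cover all members. Members outside them changed sign in some fits. For Ulk1 in p62Δhep against p62F/F, the log2 fold change went from −0.10 to 0.07 without p62F/F library 3.

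The sample titles do not say that the replicate numbers pair the samples. Deviations from the group means correlated at −0.11 to −0.07 between libraries of the same number in Tsc1/p62Δhep and Tsc1Δhep, and at −0.47 to 0.04 in p62Δhep and p62F/F. Between libraries of different numbers they correlated at −0.04 to 0.10 and at −0.14 to 0.50. With so few libraries in a group, these values cannot decide whether the samples are paired. With the number as a replicate block, 1 member (Atg2b) and 1 accessory gene (Bcl2) were called in Tsc1/p62Δhep against Tsc1Δhep, 1 and 1 in the interaction, and 0 in p62Δhep against p62F/F. Over all genes 5.14% were then higher and 9.49% lower in Tsc1/p62Δhep against Tsc1Δhep, and 2.78% and 4.1% in the interaction.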
